A study of Mus musculus with 4 samples.

Results

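Chromosome 7 was the autosome least covered by macroH2A islands in C2C12 cells, and its islands are described here. All islands listed on chromosome 7 were taken, which gave 648 of 30016 islands at day 0 and 702 of 29473 islands at day 5. An island is a stretch of enriched windows joined across short gaps, listed with its number of ChIP reads. C2C12 is an established line of mouse muscle precursors. The day 0 library came from myoblasts and the day 5 library from myotubes that had spent 5 days in differentiation medium with low horse serum, and both came from chromatin immunoprecipitated with an antibody to macroH2A, whose isoform the labels do not give. The series also has 2 input libraries, 1 for each stage, which were not analysed here. Each group holds 1 library, so differentiation was not tested, and each contrast of the days compares 1 library with 1 library. The lists hold no expression values, so the labelled cell types could not be checked against markers. Chromosome 7 was chosen by its low island coverage in these lists, so that coverage is a description and carries no test.

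MacroH2A is a variant of histone H2A with a large globular macrodomain joined to its histone part. It is known for broad chromatin domains, for enrichment on the inactive X chromosome and for roles at silent as well as some active genes. Mouse chromosome 7 is known for large families of chemosensory receptor genes, for clusters of zinc finger genes and for several imprinted domains, in which a gene is expressed from the copy of only one parent.

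On chromosome 7 the islands were few, narrow and of ordinary read density. They covered 4.42 Mb at day 0 and 5.26 Mb at day 5, which is 2.90% and 3.45% of the 152.5 Mb up to the last island. The next lowest autosome, chromosome 9, was covered over 6.28% at day 0 and 7.14% at day 5, and the other 18 autosomes together over 13.2% and 14.1%. Chromosome 7 makes up 5.79% of the summed span of the 20 chromosomes, but its share of the reads in islands was 1.32% in myoblasts and 1.47% in myotubes. Per unit of span the other autosomes were covered 4.55 times as much at day 0 and 4.09 times as much at day 5. Island number accounted for the larger factor in that ratio, with 2.88 and 2.63 times as many islands per Mb elsewhere. Mean width accounted for the rest, since islands elsewhere were 1.58 and 1.56 times as wide.

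The number of islands was 4.25 per Mb at day 0 and 4.60 per Mb at day 5, against 12.2 and 12.1 on the other autosomes. The other 18 autosomes each had at least 8.18 islands per Mb at day 0 and 8.13 at day 5. The mean island on chromosome 7 was 6.83 kb wide at day 0 and 7.49 kb at day 5. On the other autosomes the chromosome means reached down to 7.68 kb and 8.45 kb, both on chromosome 9. Chromosome 7 therefore stood at the lower end of both measures at both days.

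**Figure D1:**
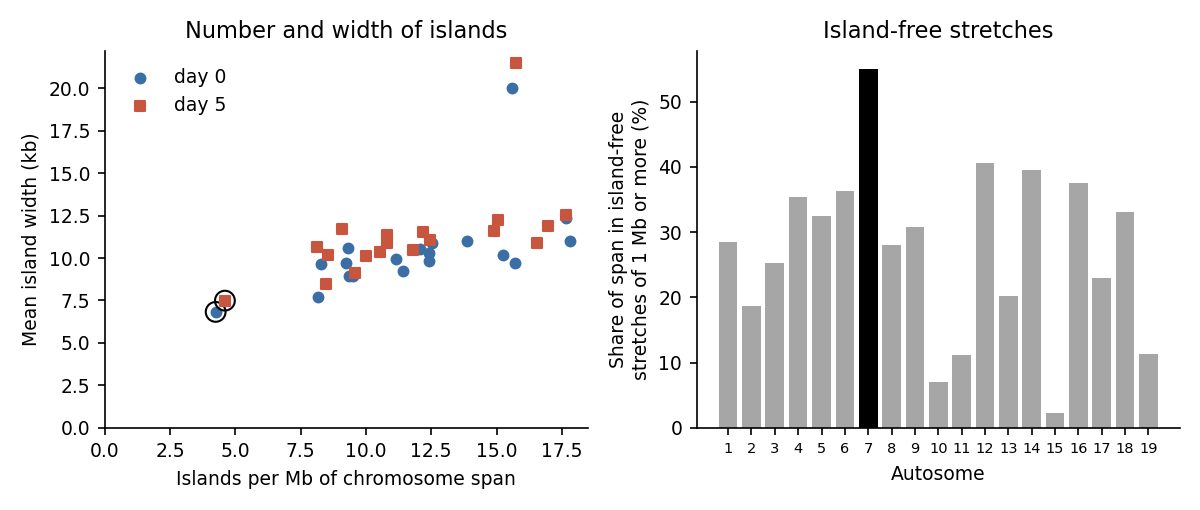
Left, islands per Mb of span (x axis) against mean island width in kb (y axis), 1 point for each of the 19 autosomes and each day, with chromosome 7 circled at 4.25 islands per Mb and 6.83 kb (day 0) and 4.60 per Mb and 7.49 kb (day 5). Right, share of each autosome's span that lies in stretches of at least 1 Mb without an island at either day, in percent, with chromosome 7 in black at 55.1% and the next highest, chromosome 12, at 40.6%.

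The islands gathered in the far part of the chromosome, counted from its centromeric end. The first 70 Mb held 119 islands at day 0 and 126 at day 5, which covered 0.969% and 1.24% of that part. From 70 Mb on there were 529 islands at day 0 and 576 at day 5, covering 4.54% and 5.32%. That far part held 84.7% of the chromosome's covered length at day 0 and 83.5% at day 5. In blocks of 25 Mb, coverage at day 0 was 0.245% in the first block, 1.33% in the second and 2.84% in the third. The following blocks, from 75 Mb, from 100 Mb and from 125 Mb, were covered over 4.25%, 3.18% and 3.63% at day 0, and over 5.02%, 4.82% and 4.21% at day 5.

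The end of the chromosome stood apart from the rest of it. From 150 Mb to the last island at 152.5 Mb, 65 islands covered 21.9% at day 0 and 44 islands covered 14.3% at day 5. The last 1.5 Mb alone was covered over 33.4% at day 0, against 2.60% of the rest of the chromosome, a ratio of 12.9. At day 5 the last 1.5 Mb was covered over 21.3%, against 3.27% of the rest, a ratio of 6.51. The same ratio on the other 18 autosomes had a median of 0.797 at day 0 and 0.833 at day 5, and it reached at most 3.41 and 3.27. The end of chromosome 7 was thus rich in islands relative to its own chromosome, while in absolute coverage it ranked the third of 19 autosome ends at day 0 and the fifth at day 5.

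Within windows of 1 Mb the richest places were partly the same at both days. At day 0 the window from 152 Mb to the end led with 24 islands and 270 kb, followed by 151 to 152 Mb with 32 islands and 231 kb. The window from 90 to 91 Mb came next with 25 islands and 196 kb, then 73 to 74 Mb with 161 kb and 117 to 118 Mb with 151 kb. At day 5 the window from 119 to 120 Mb led with 24 islands and 243 kb, followed by 73 to 74 Mb with 210 kb and the end window with 200.4 kb. The windows from 117 to 118 Mb, with 177 kb, and from 139 to 140 Mb, with 158 kb, completed the 5 richest at day 5. The 10 richest windows held 36.3% of the covered length at day 0 and 32.5% at day 5. Of the 153 windows, 16 were enough to hold 50% of the covered length at day 0 and 19 at day 5. This is 10.5% and 12.4% of the windows, below each other autosome, where it took at least 12% and 13.6%. In covered length even the richest window fell below those of the other autosomes. Theirs held at least 467 kb at day 0 and 472 kb at day 5. At day 0, however, the richest window of chromosome 7 ended at the last island. It spanned only 524200 bp and was covered over 51.6%, so its covered length does not compare with full windows. The richest window at day 5 was a full one, covered over 24.3%.

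**Figure D2:**
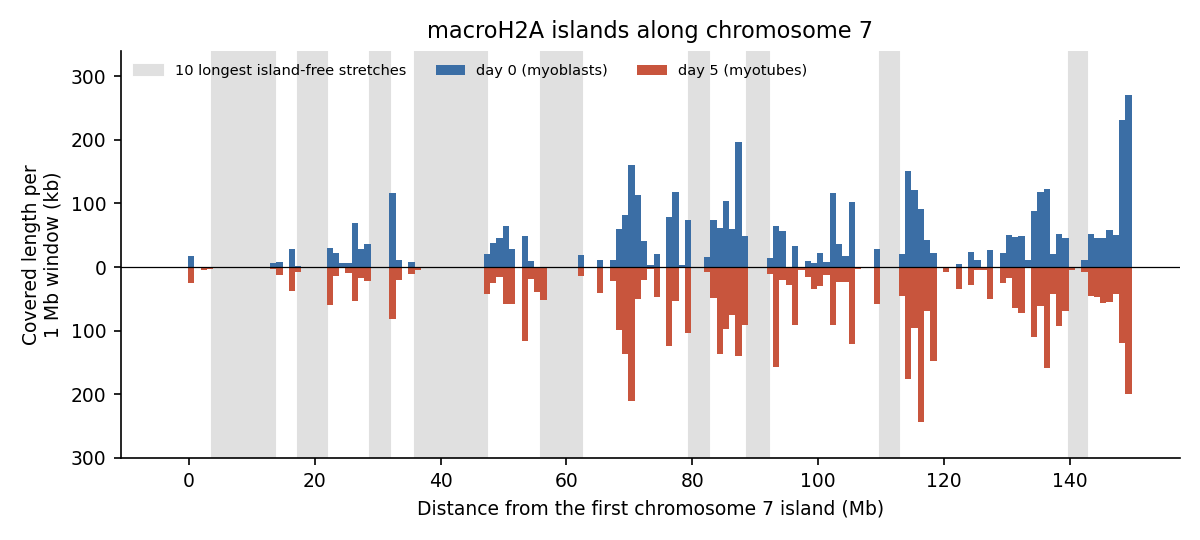
Covered length in kb per 1 Mb window along chromosome 7, with day 0 drawn upwards and day 5 downwards, against the distance in Mb from the first island. Grey bands are the 10 longest stretches without an island at either day. Bars are sparse in the near part, rise after the long bands and are tallest at the far end at day 0 (231 kb and 270 kb in the last 2 windows), where the day 5 bars are shorter (119 kb and 200.4 kb).

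Joining islands of either day across gaps of up to 50 kb gave 286 groups, of which 82 were isolated islands. The groups had a median span of 29.4 kb, and 37 groups with at least 10 islands over both days held 307 of the day 0 islands and 297 of the day 5 islands. Islands of both days were present in 171 groups, 49 groups had islands at day 0 only and 66 at day 5 only. Isolated islands made up 40 of the 49 and 42 of the 66. This split was not set against the other autosomes. The group with most covered length was the terminal one, from 152089801 to 152524200 (mm9), spanning 434 kb. Islands covered 60.1% of it at day 0 and 46.1% at day 5.

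The next groups were short and densely filled. The group from 139509001 to 139684200 spanned 175 kb and was covered over 69.9% at day 0 by 16 islands and over 84.9% at day 5 by 8 islands. The group from 117762001 to 117910200 spanned 148 kb and was covered over 75.7% by 14 islands and over 80.6% by 6 islands. In both places fewer and wider islands covered more of the group at day 5. The group from 73561801 to 73770600 was covered over 27.0% at day 0 and 59.8% at day 5, while that from 88222201 to 88467000 was covered over 41.7% and 38.2%.

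Islands also lay farther apart than elsewhere. Fewer islands per Mb lie farther apart, so this is not a trait separate from the low coverage by which chromosome 7 was chosen. The nearest island of the same day was a median of 6.6 kb away in myoblasts and 7.8 kb in myotubes, while on the other autosomes it was 3.0 kb and 3.6 kb away. No neighbour lay within 100 kb for 65 islands at day 0 (10.0%, exact binomial 95% interval 7.83 to 12.6%) and 77 at day 5 (11.0%, 8.75 to 13.5%). On the other autosomes these shares were 3.21% (3.01 to 3.43%) at both days. Chromosome 9 lay between, with 6.02% and 5.62%, and with a median nearest distance of 4.8 kb and 5.4 kb. These and the following intervals are Clopper-Pearson intervals, which cover counting error only and treat islands as independent.

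Most of chromosome 7 lay in long stretches without any listed island. Of its 153 windows of 1 Mb, 56 had no island at either day (36.6%), against 16.8% of the 2325 windows of the other autosomes and at most 31.2% on any of them. Stretches of at least 1 Mb numbered 33 and added up to 84.0 Mb, or 55.1% of the span. On the other autosomes there were 2 to 24 such stretches, covering 2.32 to 40.6% of the span. Such stretches took up 73.4% of the first 70 Mb, where 15 of them lay whole and 1 more crossed the 70 Mb boundary. The 17 that started past 70 Mb added up to 32.1 Mb. Fewer islands leave longer stretches between them. The contrast with the other autosomes is thus not separate from the low coverage by which chromosome 7 was chosen.

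The longest stretch ran from 39022201 to 50591400 (11.6 Mb) and emptied 10 windows of 1 Mb in a row. It was the longest on any autosome. On its near side it was bounded by a 5.4 kb myotube island with 414 reads, and the last myoblast island ended 445800 bp before the stretch. On its far side it ended at a 3.6 kb myoblast island with 260 reads, and a 3.6 kb myotube island with 291 reads followed 37.8 kb later. Both bounding islands were therefore narrow.

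The other long stretches lay mostly in the near part too. The second ran from 59150401 to 65640600 (6.49 Mb), and the third from 6865801 to 12595800 (5.73 Mb). The third was separated from the fifth, from 12596401 to 16732800 (4.14 Mb), by a myoblast island of 0.6 kb with 125 reads, the width of 1 calling window. In the myotube list alone nothing separated them. The fourth ran from 20386801 to 25125600 (4.74 Mb), and the ninth from 31975201 to 35099400 (3.12 Mb). In the far part were the sixth to the eighth and the tenth, from 91890001 to 95322000 (3.43 Mb), from 82588801 to 85792800 (3.20 Mb), from 112945201 to 116093400 (3.15 Mb) and from 143006401 to 145943400 (2.94 Mb). Together these 10 made up 31.8% of the span, and 3 of them were among the 10 longest on autosomes. A stretch without an island shows only that no listed island overlapped it, not that macroH2A was absent.

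The gene families of chromosome 7 could be given by their order but not placed on these stretches, since the gene table used here is of build GRCm38.p6 and the lists are in mm9. The last chromosome 7 island lies 7.20 Mb beyond the last gene of that table, so its positions cannot be read across. Of the protein-coding genes on autosomes in the table, chromosome 7 carries 126 of 231 vomeronasal receptor 1 genes and 52 of 123 vomeronasal receptor 2 genes, which encode pheromone receptors. It also carries 239 of 1104 olfactory receptor genes, 93 of 388 zinc finger genes named Zfp, 26 of 27 kallikrein genes, which encode secreted serine proteases, and all 28 Ceacam and Psg genes, a family of cell surface and secreted glycoproteins.

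In gene order from the centromeric end, the vomeronasal receptor 1 blocks and many zinc finger genes come early. The largest vomeronasal block, 86 receptor 1 genes from Vmn1r91 to Vmn1r183, lies between 16.7% and 21.8% of the way through the 2030 coding genes. Blocks of 24 vomeronasal receptor 2 genes (Vmn2r29 to Vmn2r52) and 19 vomeronasal receptor 1 genes (Vmn1r66 to Vmn1r84) precede it. A block of 8 vomeronasal receptor 2 genes (Vmn2r57 to Vmn2r126) comes later, at 38.6 to 39.4%. Another of 12 (Vmn2r65 to Vmn2r76) comes at 57.2 to 57.8%. The kallikreins come at 40.5 to 41.8%. The main olfactory receptor blocks, of 91, 35 and 67 genes, lie between 64.7% and 76.9% of the way, and a block of 19 comes at 93.3 to 94.2%. Of 26 imprinted genes listed, 25 were found on chromosome 7, in 3 main places. Zim1, Peg3 and Usp29 come at 4.57 to 4.64% of all 4162 genes. Snrpn, Ndn, Magel2, Mkrn3 and Peg12 come at 52.9 to 53.8%, with Atp10a and Ube3a shortly before them. The H19 to Osbpl5 domain, with the growth factor gene Igf2 and the cell cycle inhibitor gene Cdkn1c, comes at 98.3 to 99.2%. The last coding genes in order are Fgf4, Fgf15, LTO1, Ccnd1, Tpcn2, Smim38, Mrgprf and Mrgprd. Whether the island-free stretches or the island-rich end coincide with any of these genes was not tested.

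The islands themselves were narrow. Their median width was 5.4 kb in myoblasts and 6.0 kb in myotubes, where islands of the other autosomes had 7.2 kb and 7.8 kb. The middle 50% of widths ran from 3.6 to 8.4 kb at day 0 and from 4.2 to 9.0 kb at day 5. Islands of up to 5 kb made up 44.8% and 39.7% on chromosome 7, against 28.3% and 25.1% elsewhere. Islands wider than 20 kb numbered 19 at day 0 (2.93%) and 32 at day 5 (4.56%), where the other autosomes had 10.8% and 12.8%. None was wider than 50 kb at day 0 and 3 were at day 5. The widest island at day 0, at 31.2 kb, was narrower than the widest of every other autosome, which were at least 87.0 kb. At day 5 the widest, at 58.2 kb, exceeded that of chromosome 9, at 52.2 kb.

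Mean width was larger where local coverage was higher, on chromosome 7 and on the pooled other autosomes. Widths were also set side by side at equal local coverage, the covered share of the 1 Mb window around an island's centre. Where up to 5% of the window was covered, the mean width at day 0 was 5.88 kb on chromosome 7 and 6.15 kb elsewhere, and at day 5 it was 5.75 kb and 6.77 kb. At 5 to 10% it was 6.68 and 7.36 kb at day 0 and 7.26 and 7.91 kb at day 5. At 10 to 20% it was 7.33 and 8.67 kb at day 0 and 8.74 and 9.30 kb at day 5. In these classes the islands of other autosomes were 1.05 to 1.18 times as wide, much less than the 1.58 and 1.56 times over all islands. Above 20% local coverage the ratio was 1.43 at day 0 and 1.4 at day 5, over 56 and 67 islands of chromosome 7. At day 0 these 56 all lay in the last 2 windows of the chromosome. Local coverage includes the island's own width, so the classes are not independent of width. The classes also differ in makeup: 32.6% of the chromosome 7 islands at day 0 lay in windows covered up to 5%, against 5.76% of the islands of other autosomes.

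**Figure D3:**
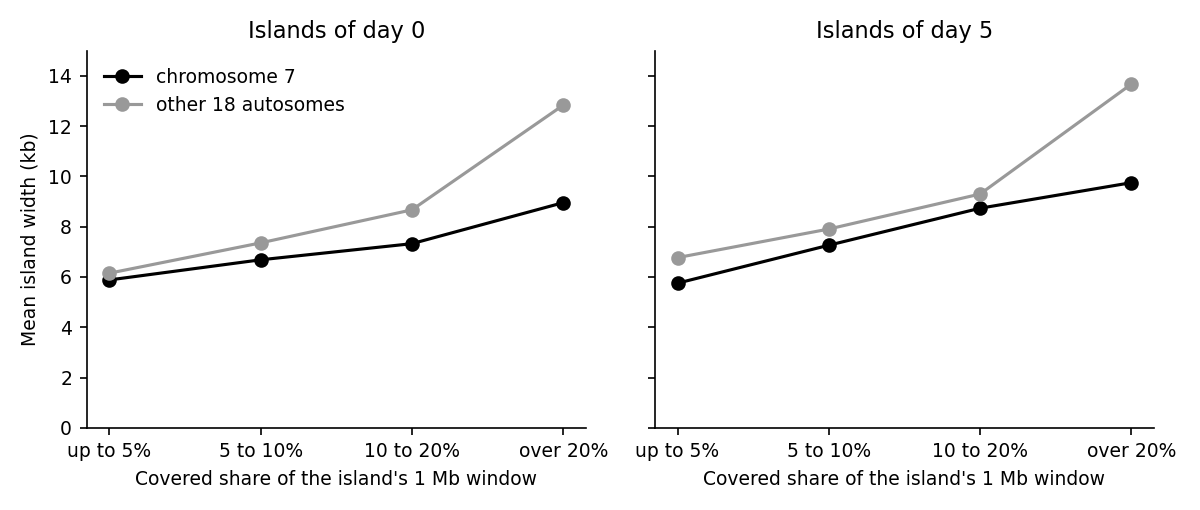
Mean island width in kb (y axis) by the covered share of the 1 Mb window around the island's centre (x axis), at day 0 (left) and day 5 (right), for chromosome 7 (black) and the other 18 autosomes (grey). The curves lie close up to 20% local coverage and part above it, where chromosome 7 has 8.96 kb against 12.8 kb at day 0 and 9.75 kb against 13.7 kb at day 5.

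Read density did not set chromosome 7 apart. The median was 72.2 reads per kb at day 0 and 82.0 at day 5, against 73.1 and 81.1 on the other autosomes. Among the 19 autosomes chromosome 7 was the sixth lowest at day 0, but the second highest at day 5. The median chromosome 7 island held 384.5 reads in myoblasts and 454.5 in myotubes, so counting alone leaves an error of 5.10% and 4.69%. Reads per island ran from 81 to 2818 at day 0 and from 110 to 5704 at day 5. Where islands of both days overlapped, reads per kb in myotubes over those in myoblasts had a median log2 ratio of 0.19 on chromosome 7 over 429 overlaps. The median over all chromosomes was also 0.19, and the other autosomes lay between 0.16 and 0.21. All listed islands had passed the caller's threshold, which narrows the range of densities they can show.

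A smaller share of islands was found at both days on chromosome 7 than on any other autosome. At day 0, 392 of 648 islands shared 1 bp or more with a myotube island (60.5%, 56.6 to 64.3%), against 72.8% of islands on the other autosomes. At day 5, 369 of 702 overlapped a myoblast island (52.6%, 48.8 to 56.3%), against 69.1%. Chromosome 9 had the next lowest shares, at 64.1% and 58.8%. When each of 2 overlapping islands had to cover at least 50% of the other, the shares on chromosome 7 were 31.2% and 28.8%, and 34.2% and 34.6% on the other autosomes. By length, myoblast and myotube islands had 2.26 Mb of chromosome 7 in common, while 2.17 Mb lay in myoblast islands only and 3.003 Mb in myotube islands only. The Jaccard index, shared over joint length, was 0.304, against 0.338 to 0.652 on the other autosomes. The index depends on how much of a chromosome is covered, so it was not used to rank chromosomes. The share of islands found at both days depends on coverage too. Its lowest rank on chromosome 7 is therefore not separate from the low coverage by which the chromosome was chosen.

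A larger share of wide than of narrow islands was found at both days. A wider island meets an island of the other list by 1 bp more easily, so width and sharing are not independent. At day 0, 161 of 290 islands up to 5 kb (55.5%), 136 of 241 islands of 5 to 10 kb (56.4%) and 95 of 117 wider ones (81.2%) were shared. Among myotube islands the shares were 40.9% of 279, 50.3% of 290 and 82.0% of 133. All 19 day 0 islands over 20 kb and 29 of the 32 day 5 islands over 20 kb (90.6%) were shared. On the other autosomes 97.4% of 3052 and 96.6% of 3584 such islands were shared. Within width classes the shares on chromosome 7 were below those of the other autosomes in all 6 cases, and in 4 of them the intervals did not overlap. The exceptions were islands up to 5 kb at day 0 and over 10 kb at day 5. The intervals of the pooled autosomes do not include the spread among those autosomes. Low shares were not particular to chromosome 7. From the narrowest class to the widest, chromosome 9 had 55.5%, 63.9% and 81.3% at day 0. At day 5 it had 45.7%, 56.8% and 77.4%, the last below chromosome 7. The intervals of chromosomes 7 and 9 overlapped in all 6 cases. On chromosome 9, islands with no neighbour within 100 kb had shares of 47.5% and 45.8%. On chromosome 7 too, isolated islands went the other way. With no neighbour of the same day within 100 kb, 36 of 65 myoblast islands (55.4%, 42.5 to 67.7%) were shared on chromosome 7 and 43.9% (40.6 to 47.2%) elsewhere, and of myotube islands 39 of 77 (50.6%, 39.0 to 62.2%) and 40.4% (37.2 to 43.7%), with overlapping intervals at both days.

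**Figure D4:**
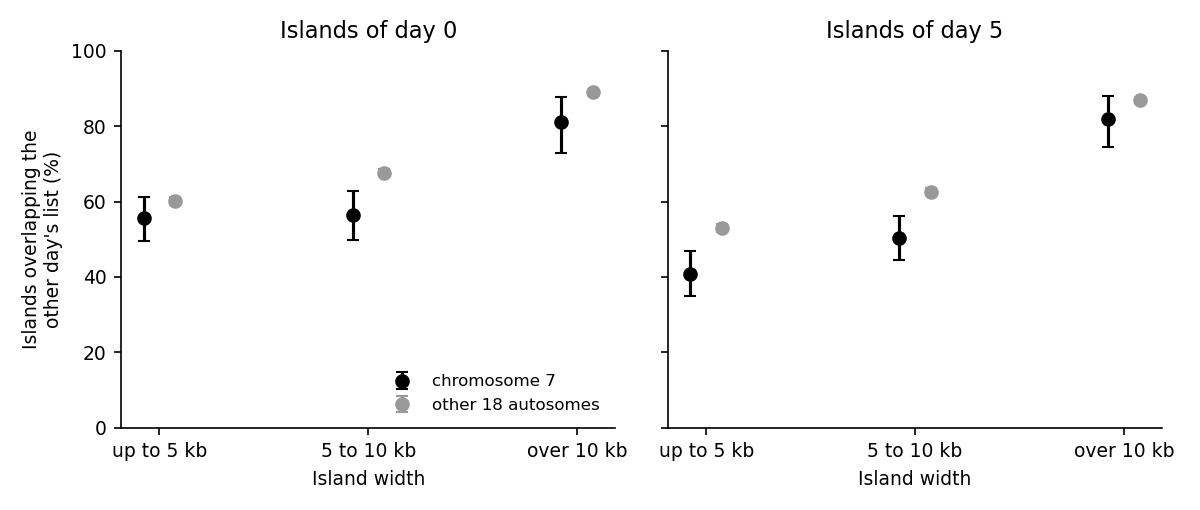
Share of islands, in percent, that overlap the other day's list by at least 1 bp, by island width, for chromosome 7 (black) and the other 18 autosomes (grey), at day 0 (left) and day 5 (right). Bars are exact 95% intervals, for the other autosomes about as small as the points, and chromosome 7 lies lower in each class, for example at 50.3% against 62.6% for islands of 5 to 10 kb at day 5.

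Shares at equal local coverage were closer. Where up to 5% of the window was covered, 56.9% (49.9 to 63.7%) of the chromosome 7 islands at day 0 were shared and 50.4% (47.9 to 52.8%) elsewhere, and at day 5 45.5% and 45.0%. At 5 to 10% the shares were 63.2% and 64.4% at day 0 and 50.2% and 53.8% at day 5. At 10 to 20% they were 63.8% and 68.0% at day 0 and 58.0% and 63.7% at day 5. The intervals of the chromosome 7 islands and of the others overlapped in all 6 of these cases. Above 20% they did not overlap at day 0, with 53.6% (39.7 to 67.0%) against 78.7% (78.0 to 79.3%), which concerns the end of the chromosome. Among the 67 myotube islands in windows covered over 20%, which lay from 73 to 74 Mb, from 119 to 120 Mb and from 152 Mb on, the share was 65.7% (53.1 to 76.8%), against 76.0% (75.4 to 76.7%) elsewhere.

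Shared islands were wider and slightly denser than the others, where the 1 bp rule itself favours wide islands. Their median width was 6.0 kb in myoblasts and 7.2 kb in myotubes, while islands without a counterpart had 4.8 kb and 5.4 kb. Their median density was 1.06 times that of the other islands at day 0 and 1.05 times at day 5. Most shared islands met exactly 1 island of the other day, 359 at day 0 and 323 at day 5, while 33 myoblast islands and 46 myotube islands met at least 2. The widest island without a counterpart was 19.2 kb at day 0 and 32.4 kb at day 5. Of islands without a counterpart, 90 of 256 at day 0 (35.2%) and 86 of 333 at day 5 (25.8%) had an island of the other day within 10 kb, where the other autosomes had 40.9% and 40.1%. None lay within 100 kb for 41 (16.0%) at day 0 and 96 (28.8%) at day 5, against 10.7% and 12.8% elsewhere. These distances too depend on the number of islands per Mb, which is low on chromosome 7.

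Covered length was 1.19 times as large in the myotube library as in the myoblast library, against 1.07 for the other autosomes together, and the other autosomes ranged from 0.912 to 1.31. Covered length was larger at day 5 in 62 windows of 1 Mb and smaller in 35. The other autosomes had medians of 64.5 larger and 41 smaller windows per chromosome. Larger windows outnumbered smaller ones on each of them except chromosomes 4 and 8, so this was not particular to chromosome 7. The largest gain was from 119 to 120 Mb, from 91.8 kb in 12 islands to 243 kb in 24 islands. Next came 121 to 122 Mb, from 22.8 kb in 4 islands to 148 kb in 21 islands. This gain was 6.50-fold, and 3.50-fold among islands of at least 70 reads per kb at day 0 and 77.8 at day 5, a floor raised by the ratio of the median densities. From 96 to 97 Mb covered length went from 64.8 kb to 158 kb. The windows from 87 to 88 Mb, from 61.6 to 137 kb, and from 56 to 57 Mb, from 48.0 to 116 kb, followed. Of these 5 windows only the last named lay in the first 70 Mb.

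The end of the chromosome went the other way. The windows with the largest loss were 151 to 152 Mb, from 231 kb in 32 islands to 119 kb in 16 islands, and 152 Mb to the end, from 270 kb in 24 islands to 200.4 kb in 21 islands. From 150 Mb on the myotube islands covered 0.654 times the myoblast length, while in the first 70 Mb it was 1.28 times and from 70 to 150 Mb 1.26 times. From 151 Mb on, 26 of the 56 myoblast islands had no myotube counterpart, and these covered 172 kb. Over all of chromosome 7 this held for 256 of 648 myoblast islands (39.5%), and on the other autosomes for 27.2%. Of the 37 myotube islands from 151 Mb on, 31 (83.8%) had a myoblast counterpart, against 52.6% over all of chromosome 7 and 69.1% on the other autosomes. The other large losses, at 74 to 75 Mb (114 to 49.8 kb), 80 to 81 Mb (118 to 54.0 kb) and 138 to 139 Mb (118 to 60.6 kb), were scattered.

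Runs of neighbouring islands seen at 1 day alone, with no island of the other day between them, were ordered by their number of islands. The longest at day 5 held 14 islands with 83.4 kb from 121270801 to 121836600, at 77.9 reads per kb. A run of 13 islands with 90.6 kb filled 277 kb from 58873201 to 59150400, at 82.6 reads per kb, right at the near edge of the second longest island-free stretch. A run of 12 islands with 53.4 kb lay from 98590801 to 99409200. At day 0 the longest runs held 9 islands from 151212001 to 151456200, at 70.4 reads per kb, and 8 islands from 80167801 to 80352600, at 67.8 reads per kb. Counting islands that stood alone as runs too, runs of at least 5 islands were 9 of 178 at day 5 and 7 of 156 at day 0. Most runs at either day were such lone islands. The runs were not set against the other autosomes, so whether they are particular to chromosome 7 was not tested. The median chromosome 7 island had 72.2 reads per kb at day 0, above both day 0 runs placed here, and 82.0 at day 5.

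At day 0 the widest and most read-rich island lay from 71356201 to 71387400, with 2818 reads at 90.3 reads per kb (exact Poisson 95% interval 87.0 to 93.7), and 3 myotube islands covered 82.7% of it. Next in reads, with 2604 and 94.3 reads per kb, was the island from 88318201 to 88345800 (90.8 to 98.0), of which 93.5% was covered at day 5. The island from 152209201 to 152238000, near the end, held 2499 reads at 86.8 reads per kb, and myotube islands covered 68.8% of it. All 5 widest myoblast islands met a myotube island.

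At day 5 the widest island lay from 117762001 to 117820200, 58.2 kb with 5704 reads at 98.0 reads per kb (95.5 to 100.6). Beneath it 4 myoblast islands covered 76.3%, at 78.9 reads per kb. The island from 139509001 to 139563600, 54.6 kb with 4928 reads at 90.3 reads per kb, also had 4 myoblast islands beneath it, which covered 87.9%. The island from 152356801 to 152407200, in the terminal group, was 50.4 kb wide with 4609 reads and joined 3 myoblast islands that covered 91.7% of it. Those from 56443801 to 56488800 (45.0 kb, 3641 reads) and from 96676201 to 96717000 (40.8 kb, 3557 reads) were covered over 41.3% and 55.9% at day 0. The 5 widest myotube islands thus each lay over 2 to 4 myoblast islands.

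Among islands without a counterpart, the 2 with most reads at day 0 were at the end of the chromosome, each 19.2 kb wide. The first, from 151950001 to 151969200, had 1455 reads, or 75.8 per kb (71.9 to 79.8), and the second, from 151411201 to 151430400, had 1277 reads, or 66.5 per kb (62.9 to 70.3). At day 5 the one with most reads lay from 112635601 to 112668000, 32.4 kb with 2683 reads at 82.8 reads per kb (79.7 to 86.0). The next, from 99585601 to 99607200, had 1927 reads, or 89.2 per kb (85.3 to 93.3). The third, from 125595601 to 125611800, had 1596 reads, or 98.5 per kb (93.7 to 103.5), and it directly followed a stretch without islands, of 1.99 Mb. Input reads were not analysed, so a high read density may reflect macroH2A or the number of DNA copies, which cannot be told apart.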

How the data were processed

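MacroH2A ChIP-seq islands of 1 myoblast library (day 0) and 1 myotube library (day 5) were used. The deposited lists hold, as the authors made them, the position of each island and the unscaled count of its ChIP reads. Build mm9 and the tools SICER 1.1, Bowtie2 2.2.6, MACS 1.4.2 and CASAVA 1.4 appear, without roles, in the submitters' processing notes. Window (600 bp), gap (1200 bp) and false discovery rate (0.01) are in the names of the deposited lists. Use of the input as control and handling of duplicate reads are not given in the sources used here. Island reads summed to 24365482 at day 0 and 29619426 at day 5, which is not library depth. All positions are printed counting from 1.

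Chromosome spans run to the last island of either list. Sharing means an overlap of at least 1 bp. Covered length was summed in windows of 1 Mb, and island-free stretches were taken between islands of either list. The regions named follow rules (per day the 5 widest, the 5 with most reads, the 3 densest, the 5 without counterpart with most reads, the 10 longest stretches, and 5 windows or groups per kind). The runs, 25 Mb blocks, the 70 Mb boundary, the chromosome ends and local coverage classes were chosen after values were seen. The members and lists were chosen with earlier results of these data known. Gene order came from RefSeq (GRCm38.p6). A gene block has at least 5 members with at most 10 positions between neighbours. No sequence is printed, since no mm9 genome was used here. Alternatives changed the islands kept, their merging, the overlap rule, the window grid and the stretch minimum. The overlap code was tested on simulated data. Tools were SciPy 1.17.1, pandas 2.3.3, matplotlib 3.10.9 and NumPy 2.4.6 under Python 3.11.15.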

Additional observations from a re-analysis of the deposited data

How the results depend on the processing

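Chromosome 7 was the least covered of the 19 autosomes at both days under each of the 6 alternative sets of islands. Percentages covered at day 0 and day 5 were 2.35 and 2.84 without the 25% of islands with fewest reads, 3.21 and 3.74 with islands within 5 kb merged, 1.65 and 3.05 with a floor of 70 reads per kb, and 1.65 and 2.06 with that floor raised at day 5 by 1.11, an alternative chosen after seeing the data. Cutting the myotube list to equal covered length gave 3.12 at day 5. Chromosome 7 held 1.36% and 1.5% of autosomal island reads, another quantity by construction. The median width was 7.8 kb at both days without the 25% with fewest reads, 6.6 kb at both when merged, 6.6 kb at day 5 for islands of at least 3 kb, 4.2 and 5.7 kb with the floor, and 4.2 and 4.8 kb with the raised floor. The first 3 follow from which islands are kept or joined. Median density over the other autosomes was 0.988 at day 0 and 1.01 at day 5. It was 0.973 and 0.989 without the 25% with fewest reads, and 1.00 at day 0 when merged, so its direction is not fixed. Shared percentages were 64.4 and 39.1 with the floor and 51.5 and 43.3 with the raised floor. With 50% of the island covered they were 52.2 and 42.2, against 63.8 and 58.2 on the other autosomes. With 50% reciprocal overlap they were 31.2 and 28.8, against 34.2 and 34.6 on the other autosomes. The Jaccard index was 0.262 with the floor and 0.272 with the raised floor. The ratio of covered length, day 5 over day 0, was 1.85 with the floor. It was 1.25 with the raised floor and 1.07 at equal covered length, where the other autosomes had 1.06 and 1.01. The 10 richest windows at day 0 held 45.2% of covered length under either floor and 42.0% on a grid moved by 500 kb. Island-free stretches numbered 53 from 500 kb and 13 from 2 Mb. Under the 6 sets of islands, stretches of at least 1 Mb numbered 31 to 34. Covered length was lower at day 5 from 150 Mb on (ratios 0.574 to 0.810) and higher in the first 70 Mb (1.13 to 1.93) and from 70 to 150 Mb (1.15 to 2.06). The gain from 121 to 122 Mb was 6.50-fold as listed and 3.50-fold with the raised floor. For the remaining changes the cause was not tested. Of 127 recomputed values 41 moved, beyond counting tolerance or, for stretches, empty windows and parts of the chromosome, beyond a fixed fold. No ratio of day 5 over day 0 changed direction, while the density ratio to the other autosomes did. Spread among cultures is unknown here. No paired analysis was possible because each group holds 1 library.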

Other observations

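Across the 19 autosomes the share of coding genes that are olfactory or vomeronasal receptors was set beside island coverage. Chromosome 7 had the highest share, with 417 of its 2030 coding genes (20.5%), and the lowest coverage. Chromosome 2 followed with 16.1% and was covered over 15.3% at day 0, and chromosome 9, with 10.8%, was covered over 6.28%. Over the 19 autosomes Pearson's r between share and coverage was -0.23 at day 0 and -0.17 at day 5, and Spearman's rho was 0.02 and 0.06, so they differed in sign. Without chromosome 7, r was 0.01 and 0.09 and rho 0.20 and 0.24. These are descriptions, since chromosomes share libraries and differ in size. The densest chromosome 7 islands were small. At day 0 the densest was the 0.6 kb island with 125 reads that parts the third and the fifth longest island-free stretches, at 208 reads per kb (173 to 248), and at day 5 a 0.6 kb island from 104898601 to 104899200 with 110 reads, at 183 reads per kb (151 to 221). Neither had a counterpart at the other day.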
